A study of Mus musculus with 42 samples.

Results

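The hepatic iron regulation genes are 10 genes that set how much iron enters, stays in and leaves the liver and the blood. They were taken by gene name from the 54532 genes of the read count table, and each name matched 1 gene: Hamp, Hamp2, Tfr2, Hfe, Bmp6, Trf, Tfrc, Slc40a1, Fth1 and Ftl1. Livers were collected from female C57BL/6NHsd mice (C57BL/6 in the labels) that had been weaned at 3 weeks of age and then fed for 3 weeks. The AIN93G diet, a purified standard diet for rodents, gave 16% of its energy as soybean oil, and the high-fat diet (HFD), a modified AIN93 formula, gave 45% as the same oil. Mice were killed every 4 h by Zeitgeber time (ZT), where ZT 0 is lights on and ZT 12 is lights off, and they were not fasted. There were 42 libraries of mRNA, 3 for each diet and time from ZT 0 to ZT 24. Iron in the diets, the plasma or the liver was not analysed here.

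Hepcidin, the peptide made from Hamp, is secreted by hepatocytes and acts on ferroportin, the iron exporter encoded by Slc40a1, so that less iron leaves the cells that hold it. Its transcription is driven by bone morphogenetic proteins such as BMP6, which sinusoidal endothelial cells release and which signal through SMAD proteins, and by inflammatory cytokines, which act through STAT3. Inside cells, iron regulatory proteins bind hairpins called iron-responsive elements, which hold back the translation of ferritin and ferroportin mRNA and protect the mRNA of the transferrin receptor from decay when iron is scarce.

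The promoters of Hamp and Hamp2 are printed because Hamp was the member that passed the test of time, Hamp2 is its near-identical copy, and both BMP and STAT3 signals reach Hamp through short elements in this stretch. Both genes lie on the minus strand of chromosome 7, Hamp at chr7:30942368-30944032 and its tandem copy Hamp2 at chr7:30922372-30924681 in mm10. The 250 bases before the start that RefSeq lists for each gene are given 5′ to 3′ from RefSeq (GRCm38.p6, the same assembly as mm10), at chr7:30944030-30944279 for Hamp and chr7:30924182-30924431 for Hamp2, with capitals for the letters GGCGCC (the core of the BMP-responsive element) and TTCTTGGAA (a STAT3-type element). The RefSeq start of Hamp2 lies inside the gene as the count table places it, so its printed stretch falls within those coordinates, while the RefSeq start of Hamp is within a few bases of the end of its gene.
Hamp: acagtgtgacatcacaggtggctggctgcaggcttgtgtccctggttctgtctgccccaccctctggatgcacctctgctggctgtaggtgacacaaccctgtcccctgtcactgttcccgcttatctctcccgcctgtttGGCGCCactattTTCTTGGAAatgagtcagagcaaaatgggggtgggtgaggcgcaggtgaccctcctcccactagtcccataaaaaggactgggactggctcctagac
Hamp2: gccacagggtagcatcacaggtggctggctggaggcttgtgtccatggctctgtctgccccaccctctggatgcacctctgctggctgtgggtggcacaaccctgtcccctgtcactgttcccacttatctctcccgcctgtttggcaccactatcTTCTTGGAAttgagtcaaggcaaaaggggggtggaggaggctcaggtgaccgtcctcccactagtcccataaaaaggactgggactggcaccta
The 2 promoters were alike at 91.9% of 247 aligned bases. The STAT3-type letters began 97 bases before the start of Hamp and 94 bases before that of Hamp2. GGCGCC began 109 bases before the start of Hamp, and at the aligned place Hamp2 held the difference G4A, with positions counted from 1 at the first base of the 6. On both strands, GGCGCC was found in 11.9% and TTCTTGGAA in 0.417% of 32851 promoter windows of 300 bases. The E-box letters CACGTG, to which clock proteins bind, were found in 7.15% of these windows, and in those of neither Hamp nor Hamp2. Of the 10 members, 8 had a promoter entry, and among these GGCGCC was also present at 1 of the starts listed for Tfrc and CACGTG for Bmp6. These matches describe letters only. The spliced transcripts of Hamp and Hamp2 were alike at 94.9% of 410 aligned bases and shared a run of 87 identical bases, so reads could be assigned to either gene by the counting, and the values of each are uncertain to that degree.

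Iron-responsive elements are shown because they mark the members under the control of iron regulatory proteins. Those in a 5′ UTR act on translation, which these data do not measure. Those of Tfrc act on the decay of its mRNA, which the counts do not separate from its transcription. The elements were searched in GENCODE M21 transcripts (GRCm38) as 17 bases with a bulged C, 5 paired bases, a 6-base loop that starts with CAGTG, and the 5 bases that pair back, and the loop is in capitals.
Fth1, 5′ UTR, chr19:9982738-9982754, plus strand: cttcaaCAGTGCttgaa
Ftl1, 5′ UTR, chr7:45459785-45459801, minus strand: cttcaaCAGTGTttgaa
Slc40a1, 5′ UTR, chr1:45925471-45925487, minus strand: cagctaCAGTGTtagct
Tfrc, 3′ UTR, chr16:32631225-32631241, plus strand: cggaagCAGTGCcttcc
Tfrc, 3′ UTR, chr16:32631604-32631620, plus strand: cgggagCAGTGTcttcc
Tfrc, 3′ UTR, chr16:32631669-32631685, plus strand: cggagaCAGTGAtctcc
Tfrc, 3′ UTR, chr16:32631716-32631732, plus strand: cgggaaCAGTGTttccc
Such a match was present in the 5′ UTR of 0.142% and in the 3′ UTR of 0.589% of 21901 protein-coding genes. The 3 genes for iron storage and export carried it ahead of the coding sequence, and Tfrc carried 4 behind it.

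Libraries differed in tissue before any comparison of diets. Total counts ranged from 14592481 to 21368409 per library. Levels are given as CPM, the count divided by the library total after TMM scaling and multiplied to a common total. Alb, the main hepatocyte product, was above 10000 CPM in 32 libraries, which are called liver here, and between 11.7 and 67.0 CPM in the other 10, where the adipocyte hormone Adipoq was between 884 and 1997 CPM. These 10 adipocyte-rich libraries are all 6 of AIN93G at ZT 16 and ZT 20, and 2 of 3 in each diet at ZT 24, and all are labelled as liver. Time and diet were therefore compared in the 30 liver libraries of ZT 0 to 12 in both diets and of ZT 16 and 20 in the HFD, where Adipoq was at most 5.59 CPM. At ZT 12, the clock gene Arntl was between 1.04 and 1.98 CPM in 3 libraries (1 AIN93G, 2 HFD) and between 42.5 and 51.6 CPM in the other 3. For Hamp, the time test on the HFD, the diet difference over ZT 0 to 12 and the interaction are therefore also given without ZT 12. The cosine and the AIN93G time test of Hamp are given only with ZT 12 included. The 3 libraries with low Arntl carry the dark phase in their labels, while of the 3 with high Arntl 2 carry the light phase (1 of each diet) and 1, of AIN93G, the dark phase. Library titles also go with time: HFD titles run from Y37_2 to Y48_3 at ZT 0, 4 and 8 and from Y25_3 to Y36_1 at ZT 16 and 20, and AIN93G titles split alike. At ZT 12 the titles with high Arntl (Y14_1, Y16_3, Y39_1) have numbers of the earlier hours of their diet, and those with low Arntl of the later hours. The labels do not say what the numbers stand for, and their part in the time profiles was not tested. Each library is 1 mouse, and p-values measure the spread between these mice.

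In the 30 liver libraries, the hepcidin and ferritin mRNAs were the most abundant members per kb of exon. The means were 1635 ± 665 CPM per kb (SD, n = 30) for Hamp, 1307 ± 168 for Fth1, the heavy chain of ferritin, and 1064 ± 184 for Ftl1, the light chain. Hamp2 was at 550.4 ± 269, and Trf, which encodes the plasma iron carrier transferrin, at 354 ± 110. Tfr2, the receptor by which hepatocytes sense transferrin with bound iron, was at 100.8 ± 10.04, Slc40a1 at 24.9 ± 4.20, Hfe, a partner of the transferrin receptors, at 12.9 ± 1.57, Tfrc, the receptor that takes transferrin into cells, at 6.29 ± 2.97, and Bmp6 at 0.798 ± 0.229. The ranges of neighbours in this order overlapped from Hamp through Trf and between Hfe and Tfrc. They did not overlap between Trf and Tfr2, Tfr2 and Slc40a1, Slc40a1 and Hfe, or Tfrc and Bmp6. In mm10 the other members lie at chr5:137569840-137587481 (Tfr2), chr13:23702034-23710854 (Hfe), chr13:38345107-38500302 (Bmp6), chr9:103204001-103230444 (Trf), chr16:32608920-32632794 (Tfrc), chr1:45908068-45926523 (Slc40a1), chr19:9982703-9985092 (Fth1) and chr7:45457944-45459884 (Ftl1). The exon lengths are those of the deposited table and differ from 410 bases for Hamp to 9000 for Slc40a1, so the order depends on them. The coefficient of variation of CPM over the 30 libraries was 48.9% for Hamp2, 47.2% for Tfrc and 40.7% for Hamp, and 9.97% for Tfr2, the steadiest member. Bmp6 rested on 25 to 69 counts per library and Hamp on 3297 to 16187, so small differences of Bmp6 could not be resolved.

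**Figure D1:**
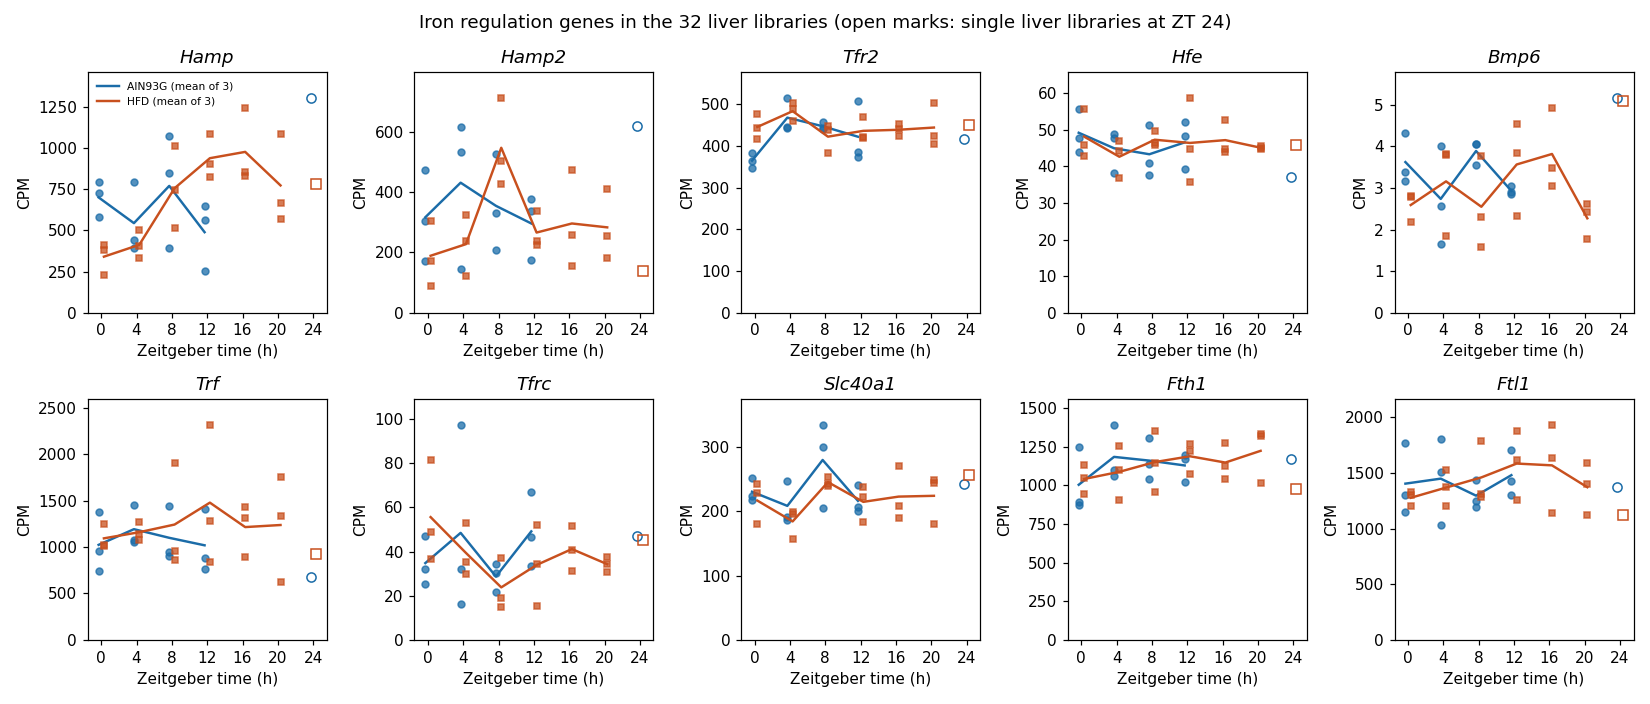
CPM of each member (vertical axes, each starting at 0) against ZT in hours in the 32 liver libraries, with AIN93G as blue circles and the HFD as orange squares; lines join the means of 3 libraries, and open marks at ZT 24 are single libraries. Hamp on the HFD is low at ZT 0 and 4 (226 to 500.0 CPM) and higher from ZT 8 to 20 (513 to 1244 CPM), and no other member passed the test of time on either diet.

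Hamp was the member whose mRNA changed with time of day on the HFD. The 3 HFD libraries of ZT 0 had 226, 412 and 382 CPM, and those of ZT 4 had 332, 404 and 500.0 CPM. At ZT 8 the values were 1011, 513 and 746 CPM, at ZT 12 they were 1084, 906 and 827 CPM, at ZT 16 they were 855, 1244 and 833 CPM, and at ZT 20 they were 666, 1088 and 566 CPM. Every library of ZT 0 and 4 was below every library of ZT 8 to 20, although the gap between 500.0 and 513 CPM is narrow. This split was read from the values themselves, and its share over all genes was not counted. The ZT 12 library at 827 CPM was the one with high Arntl (42.5 CPM). The mean rose from 340.3 ± 99.99 CPM (SD, n = 3) at ZT 0 to 977 ± 232 CPM at ZT 16, and the fitted log2 values spanned 1.53 between the lowest and the highest time point (edgeR quasi-likelihood test with Benjamini-Hochberg adjustment, adjusted p = 0.0221). The test called 318 of 12023 genes (2.64%), and 1 of the 10 members. The median fitted range was 0.43 over the members and 0.52 over all genes tested. A 24 h cosine fitted to log2 CPM had a Mesor of 9.31 ± 0.0946 (SE), an amplitude of 0.79 ± 0.134 and an acrophase of ZT 13.8 ± 0.645 h, and with cosine and sine terms in edgeR the adjusted p was 0.00360.

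The call of Hamp was lost over ZT 0 to 12 alone (range 1.47, adjusted p = 0.0783, where 1 gene in all was called) and was kept without ZT 12 (adjusted p = 0.0197). Leaving out each of the 18 libraries in turn gave adjusted p-values from 0.00836 to 0.0466. In the HFD liver, the summed hepatocyte markers were 102600 to 129664 CPM at ZT 0 and 4 and 104950 to 154719 CPM at ZT 8 to 20, and the summed Kupffer cell markers were 386 to 1091 and 326 to 700 CPM. Both pairs of ranges overlap, and the part of cell makeup in the difference was not tested. In bulk tissue, fewer cells of a type and less RNA per cell cannot be told apart. With the counts of Hamp and Hamp2 summed to 1 gene, an alternative added after the data were seen, the fitted range was 1.30 (adjusted p = 0.0203).

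Hamp2, the tandem copy, whose product is not thought to regulate iron as hepcidin does, did not pass the test of time on the HFD. On the HFD it was at 305, 173 and 89.0 CPM at ZT 0, at 120.3, 325 and 237 CPM at ZT 4, and at 714, 426 and 502 CPM at ZT 8. It was at 223, 237 and 338 CPM at ZT 12, at 475, 258 and 155 CPM at ZT 16, and at 411, 256 and 183 CPM at ZT 20. The mean was highest at ZT 8 (548 ± 149 CPM), and the range of ZT 8 overlaps with that of ZT 16. The fitted log2 range of 1.53 was as wide as that of Hamp (adjusted p = 0.222). Within groups, the deviations of Hamp and Hamp2 had a Pearson's r of 0.18 over the 30 libraries (permutation p = 0.443) and a Spearman's rho of 0.15 (permutation p = 0.51).

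On the AIN93G diet, neither hepcidin gene had a time profile that passed the test. Hamp was at 793, 725 and 584 CPM at ZT 0, at 795, 444 and 394 CPM at ZT 4, at 391, 849 and 1072 CPM at ZT 8, and at 647, 564 and 256 CPM at ZT 12. Libraries of 1 time point spanned most of the range of the diet, and all 4 time points overlap. The fitted log2 range over ZT 0 to 12 was 0.66 (adjusted p = 0.789). Hamp2 was between 145 and 617 CPM in these 12 libraries, with both extremes at ZT 4, and its fitted range was 0.54 (adjusted p = 0.923). In this test edgeR called 0 of 12023 genes (0%), with 1177 at an unadjusted p under 0.05, while DESeq2 called 275, and 0 of the 10 members passed with either tool. At ZT 16, where the mean of Hamp was highest on the HFD, and at ZT 20, no AIN93G library was liver.

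Hamp was lower on the HFD in every library at ZT 0 and higher in every library at ZT 12, but neither difference nor the interaction of diet with time passed the threshold in the edgeR fit. At ZT 0 the HFD libraries (226 to 412 CPM) lay below the AIN93G libraries (584 to 793 CPM), with a log2 fold of HFD over AIN93G of -1.04 ± 0.22 (SE; adjusted p = 0.270). The difference was -0.41 ± 0.26 at ZT 4 and -0.04 ± 0.36 at ZT 8, where the ranges overlap. At ZT 12 the HFD libraries (827 to 1084 CPM) lay above the AIN93G libraries (256 to 647 CPM), with a log2 fold of 0.96 ± 0.33 (adjusted p = 0.907). Beside this difference, the summed stellate cell markers at ZT 12 were 364 to 418 CPM on AIN93G and 438 to 532 CPM on the HFD, without overlap, while the ranges of the other cell type lists overlap, and their part in the difference was not tested. Arntl at ZT 12 was 1.28, 47.4 and 51.6 CPM on AIN93G and 1.98, 1.04 and 42.5 CPM on the HFD. The mix of clock states thus differs between the diets at this hour, and its part in the difference was not tested either. For Hamp2 the log2 fold at the same hours, in order, was -0.74 ± 0.45, -0.93 ± 0.48, 0.62 ± 0.32 and -0.14 ± 0.31, and the ranges of the diets overlap at each hour. The interaction of diet with time over ZT 0 to 12 had an unadjusted p of 0.00755 and an adjusted p of 0.749 for Hamp, and without ZT 12 the unadjusted p was 0.140. That fit called 0 of 12023 genes (0%), with 702 at an unadjusted p under 0.05, and DESeq2 called 8 genes and no member.

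The call at ZT 0 depended on the tool. DESeq2 called Hamp there (adjusted p = 0.000338) among 102 genes, and edgeR without a filter on low counts called Hamp, Hamp2 and Tfrc among 453 genes. The edgeR fit called 9 genes (0.0749%) and 0 of the 10 members, with 2 of them, Hamp and Tfr2, at an unadjusted p under 0.05, as were 971 of the 12023 genes. Over the libraries left out in turn, the adjusted p of Hamp at ZT 0 went from 0.0991, without HFD replicate 1, to 0.545, without AIN93G replicate 1. Beside this difference, the summed Kupffer cell markers at ZT 0 were 461 to 543 CPM on AIN93G and 586 to 1091 CPM on the HFD, without overlap, and Saa1, an acute-phase gene of hepatocytes named after its values were seen, was 22.2 to 25.4 CPM on AIN93G and 33.4 to 61.4 CPM on the HFD (adjusted p = 0.204). The summed adipocyte markers were also separate, at 9.89 to 11.4 CPM and 12.8 to 15.4 CPM, both far below the adipocyte-rich libraries. The summed hepatocyte markers at ZT 0 were 119048 to 133096 and 115904 to 129664 CPM. Saa1 belongs to a list of 11 genes of hepcidin induction by inflammation and stress. In the edgeR fit at ZT 0 this list had 0 genes called and 4 at an unadjusted p under 0.05. Its median log2 fold was 0.53, against -0.000476 over all genes tested. The part of these values in the difference of Hamp was not tested.

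**Figure D2:**
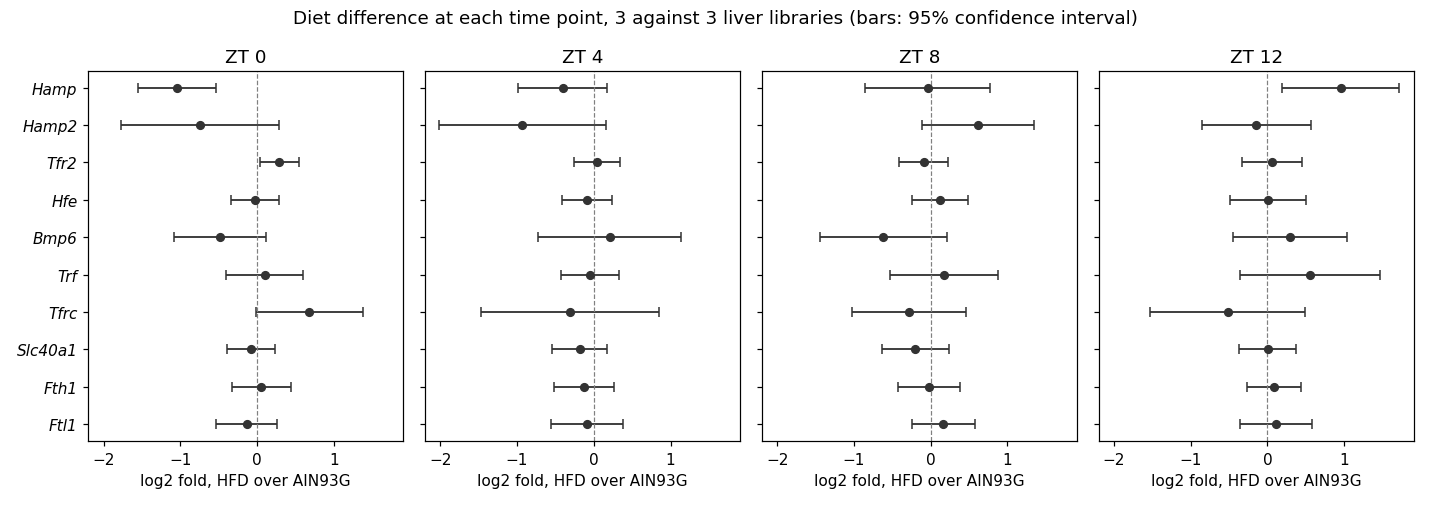
Log2 fold of HFD over AIN93G (horizontal axes) for each member at ZT 0, 4, 8 and 12, from edgeR fits of 3 against 3 liver libraries, with 95% confidence intervals as bars. The interval of Hamp lies below 0 at ZT 0 (-1.55 to -0.53) and above 0 at ZT 12 (0.19 to 1.72), that of Tfr2 lies above 0 at ZT 0 (0.04 to 0.55), and all others cross 0.

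No gene that feeds into hepcidin passed a test of time or diet in liver. Tfr2 was at 383, 364 and 347 CPM on AIN93G at ZT 0 and at 443, 476 and 417 CPM on the HFD, and between 373 and 516 CPM in all other liver libraries of ZT 4 to 20. Its log2 fold at ZT 0 was 0.29 ± 0.11 (adjusted p = 0.595), and the ranges of the diets did not overlap. Hfe was between 35.8 and 58.8 CPM in all 30 libraries, and its fitted log2 ranges over time were 0.18 in both diets (adjusted p = 0.921 on the HFD and 0.919 on AIN93G). Bmp6 was at 4.33, 3.38 and 3.16 CPM on AIN93G at ZT 0 and at 2.81, 2.18 and 2.78 CPM on the HFD, which did not overlap (log2 fold -0.48 ± 0.27, adjusted p = 0.668), while the summed markers of sinusoidal endothelium, the cells that make BMP6, were 290.4 to 329 and 267 to 336 CPM. At ZT 0, 3 of the 10 members (Hamp, Tfr2 and Bmp6) had separate ranges on the 2 diets, against 13.3% of all genes tested. Ranges were separate for 0 members at ZT 4 (7.5% of genes), 0 at ZT 8 (13%) and 1, Hamp, at ZT 12 (10.2%).

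Of the carriers, Tfrc spread the most and Slc40a1 the least. Tfrc on the HFD was at 81.4, 49.0 and 36.4 CPM at ZT 0, at 35.3, 53.1 and 29.8 CPM at ZT 4, at 19.1, 15.1 and 37.2 CPM at ZT 8, and at 34.2, 52.1 and 15.4 CPM at ZT 12. The means were highest at ZT 0 (55.6 ± 23.2 CPM) and lowest at ZT 8 (23.8 ± 11.8 CPM), but the groups overlap and the fitted log2 range of 1.22 did not pass the test (adjusted p = 0.335). On AIN93G the largest value, 97.4 CPM, and the smallest, 16.1 CPM, both came from ZT 4. Slc40a1 was between 157 and 334 CPM, with fitted log2 ranges of 0.42 on the HFD (adjusted p = 0.531) and 0.43 on AIN93G (adjusted p = 0.640). Its highest group means in both diets were at ZT 8, with 280 ± 67.3 CPM on AIN93G and 245 ± 7.70 CPM on the HFD. Trf was between 623 and 2317 CPM, and its highest libraries were HFD libraries of ZT 12 (2317 CPM) and ZT 8 (1903 CPM) whose groups otherwise lay between 840.1 and 1280 CPM. Its fitted log2 ranges were 0.44 (adjusted p = 0.922) and 0.23 (adjusted p = 0.952).

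The ferritin genes were abundant, and neither passed a test in liver. Fth1 was between 872 and 1392 CPM and Ftl1 between 1030 and 1932 CPM in the 30 liver libraries. Over ZT 0 to 12 the log2 fold of HFD over AIN93G was 0.00 ± 0.08 for Fth1 (95% confidence interval -0.17 to 0.17) and 0.02 ± 0.10 for Ftl1 (-0.19 to 0.22). Processed copies of both genes lie elsewhere in the genome, and reads that they share could be counted for either place. Ferritin protein, which is under the control of the elements printed above, was not measured.

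Averaged over ZT 0 to 12, no member differed between the diets by the test. The log2 fold of HFD over AIN93G was -0.13 ± 0.23 for Hamp (95% confidence interval -0.61 to 0.34), and without ZT 12 it was -0.49 (adjusted p = 0.337). It was -0.30 ± 0.27 for Hamp2, -0.10 ± 0.26 for Tfrc, 0.08 ± 0.06 for Tfr2, 0.20 ± 0.16 for Trf, -0.11 ± 0.08 for Slc40a1, 0.01 ± 0.08 for Hfe and -0.15 ± 0.18 for Bmp6. The intervals leave room for a difference of up to 0.86 on the log2 scale in Hamp2, and of at most 0.21 in Tfr2. The fit called 16 genes (0.133%) and 0 members with edgeR, 80 genes and 0 members with DESeq2, and 0 members had an unadjusted p under 0.05. The median log2 fold was -0.05 over the members and 0.00 over all genes tested. At ZT 4, 8 and 12, edgeR called 0 genes each (0%), with 422, 865 and 522 at an unadjusted p under 0.05, while DESeq2 called 27, 60 and 4, none of them a member.

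Other genes of iron handling were read from 6 lists, whose counts in the time test on the HFD stand against 2.64% of all genes called and 2604 of 12023 at an unadjusted p under 0.05. The list of hepcidin induction by BMP and transferrin saturation had 1 of 20 tested genes called, which was Hamp. The lists of inflammatory induction (11 genes), of iron regulatory proteins and ferritin turnover (11) and of mitochondrial iron and iron-sulfur assembly (13) had 0 called, with 1, 2 and 5 at an unadjusted p under 0.05. The list of iron uptake, reduction and plasma binding had 1 of 15, which was Steap3, an endosomal ferrireductase that works behind the transferrin receptor. Steap3 fell from 27.1 ± 5.46 CPM (SD, n = 3) at ZT 0 and 27.3 ± 1.82 CPM at ZT 4 to 16.7 ± 2.22 CPM at ZT 12, and was at 25.9 ± 1.67 CPM at ZT 20 (fitted log2 range 0.69, adjusted p = 0.0412). Without ZT 12 the range of Steap3 was 0.68 (adjusted p = 0.0735), and over ZT 0 to 12 alone it was 0.69 (adjusted p = 0.128). The call was also lost in 15 of the 18 fits that left out 1 library, with adjusted p-values from 0.0146 to 0.0847. It was kept with DESeq2 (adjusted p = 0.000723), with cosine and sine terms in edgeR (adjusted p = 0.00516) and in one edgeR fit of the 30 liver libraries (adjusted p = 0.00933). The heme list had 1 of 12, Alas1, the rate-limiting enzyme of heme synthesis in liver, which rose from 253 ± 76.9 CPM at ZT 0 to 1448 ± 983 CPM at ZT 12 (fitted log2 range 2.56, adjusted p = 0.0289). The 3 libraries of ZT 12 ran from 329.6 to 2170.3 CPM. Without ZT 12 the range of Alas1 was 1.47 (adjusted p = 0.0308), and its call was lost in 5 of the 18 fits that left out 1 library (replicate 2 of ZT 0, replicates 2 and 3 of ZT 4, and replicates 1 and 2 of ZT 12), with adjusted p-values up to 0.0943. The call of Alas1 was also lost in one fit of the 30 liver libraries (range 2.56, adjusted p = 0.0634) and over ZT 0 to 12 alone (range 2.56, adjusted p = 0.100). It was kept with DESeq2 (adjusted p = 0.000308) and with cosine and sine terms in edgeR (adjusted p = 0.00337). The means of Steap3 were lowest at ZT 12 and 16, where those of Hamp were highest. No gene of the 6 lists passed the time test on AIN93G, the diet test over ZT 0 to 12 or the interaction, in which edgeR called 0, 16 and 0 genes in all.

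Within groups, 3 of 45 pairs of members deviated together. After the mean of each diet and time group had been taken from the log2 CPM of the 30 liver libraries, Fth1 and Ftl1 had a Pearson's r of 0.76 (permutation p = 7e-05, adjusted over the 45 pairs p = 0.00315) and a Spearman's rho of 0.76 (adjusted permutation p = 0.0045). Without the 2 libraries farthest from the median of Fth1, r was 0.72. Trf and Ftl1 had r = 0.72 and rho = 0.72 (adjusted permutation p = 0.00465 and 0.00855), with r = 0.68 without the 2 farthest libraries. Hamp2 and Hfe had r = 0.70 and rho = 0.76 (adjusted permutation p = 0.00465 and 0.0045), with r = 0.66 without the 2 farthest. Labels were permuted within groups, and every pair shares the scaling of its library. Hamp was in none of these pairs.

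**Figure D3:**
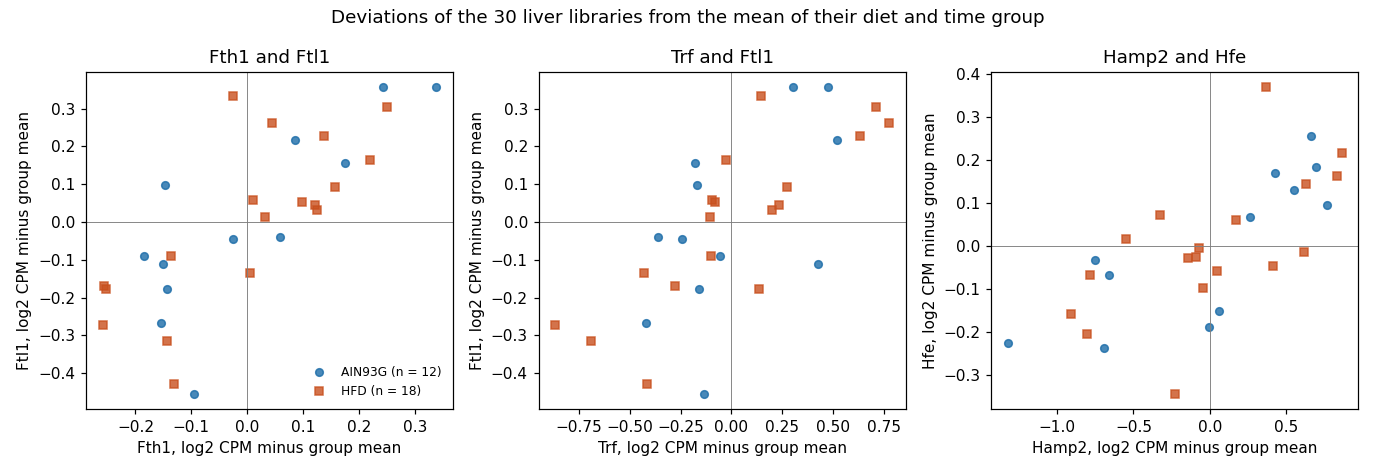
Deviation of log2 CPM from the mean of the diet and time group for the 3 pairs named, 1 point per liver library (12 AIN93G, blue circles; 18 HFD, orange squares). Points run from lower left to upper right in both diets, with Pearson's r of 0.76, 0.72 and 0.70.

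The genes outside the 10 whose log2 CPM ran closest to that of a member over the 30 liver libraries were found among 12013 genes, as a description that includes time and diet. For Hamp they were Acot7 (Pearson's r = 0.71), Cdk2 (0.69) and Inmt (0.69), and for Slc40a1 they were Grb10 (0.75), Rhoq (0.72) and Pias2 (0.70). For Tfrc they were Zfhx3, Gm11342 and Kcnq1ot1 (all 0.61), with Spearman's rho of 0.46 to 0.50. For Bmp6 they were Gm30025 (0.66), Snhg8 (0.66) and Apex1 (0.65), which rest on the low counts of Bmp6.

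In the adipocyte-rich libraries 6 of the members lay below every liver library, and Bmp6 lay above. Among the 13394 genes tested over all 42 libraries, 33.3% had separate ranges in the 2 kinds of library, against 7 of the 10 members, and Alb, which defined the split, is no member. Hamp had 1 to 6 counts per library and Hamp2 0 to 5, against at least 3297 and 1471 counts in every liver library of ZT 0 to 20. Tfr2 was between 1.23 and 6.05 CPM, Trf between 26.6 and 107 CPM, and Slc40a1 between 6.67 and 15.7 CPM, each below the lowest liver library. Ftl1 was between 318 and 492 CPM, also below every liver library. Tfrc (17.2 to 59.8 CPM) lay within its range in liver, Hfe was between 34.7 and 89.7 CPM, and Fth1, at 728 to 1045 CPM, overlapped with liver at its lower end. Bmp6 was higher, with 7.18 to 17.7 CPM against 1.59 to 4.93 CPM in the 30 liver libraries, and at most 5.17 CPM in the 2 at ZT 24. In these libraries the summed hepatocyte markers were 14.02 to 80.5 CPM and the summed adipocyte markers 5429 to 10905 CPM. The summed lymphocyte markers were 34.99 to 672 CPM, against 4.02 to 17.1 CPM in liver, and the summed Kupffer cell markers 59.5 to 256 CPM, against 326 to 1091 CPM. The part of each cell type in the levels of the members was not tested.

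**Figure D4:**
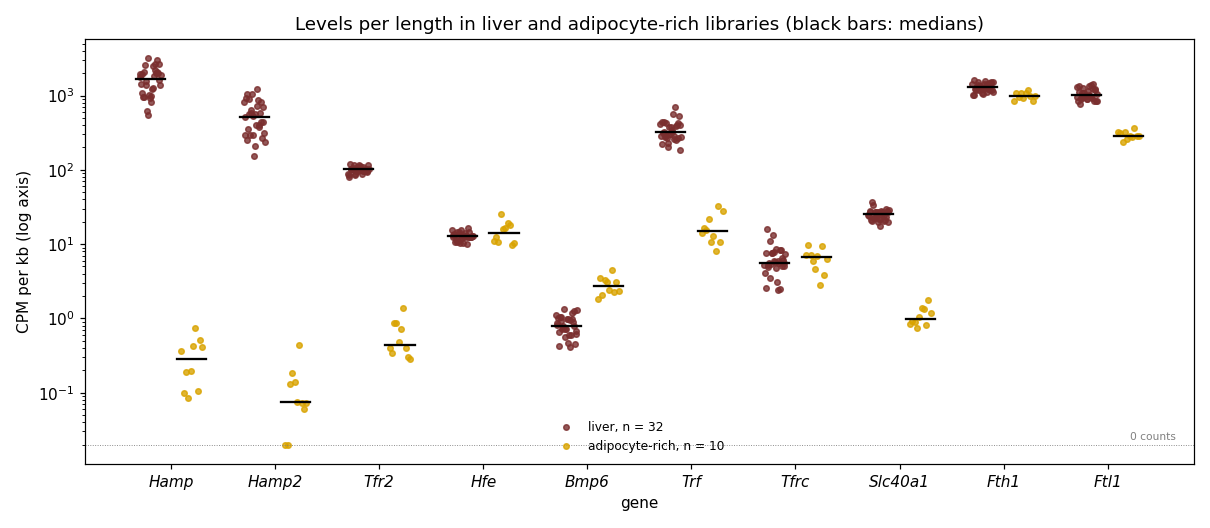
CPM per kb of exon (log axis) of each member in the 32 liver libraries (dark red) and the 10 adipocyte-rich libraries (yellow), 1 point per library, with medians as black bars and libraries without a count on the dotted line. Hamp, Hamp2, Tfr2, Trf, Slc40a1 and Ftl1 are lower in the adipocyte-rich libraries, Bmp6 is higher, and Hfe, Tfrc and Fth1 overlap.

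At ZT 16 and ZT 20 the diet labels coincide with this split: all 3 AIN93G libraries are adipocyte-rich and all 3 HFD libraries are liver, so diet and tissue cannot be told apart. At ZT 16 the fit called 7464 of 13394 genes (55.7%) and 7 of the 10 members. The later hour had 7847 genes (58.6%) and 8 members called. Hamp had 7 counts in all on AIN93G at each of the 2 hours, and the ratio of HFD to AIN93G was 10522 at ZT 16 (95% counting interval 5106 to 26171) and 8440 at ZT 20 (4096 to 20994). Hamp2 had 2 counts in all on AIN93G at ZT 16 and 6 at ZT 20, with ratios of 11454 (3170 to 94588) and 3609 (1658 to 9836). The log2 fold was 7.57 and 7.21 for Tfr2, 4.58 and 4.62 for Trf, 4.82 and 4.56 for Slc40a1, 2.02 and 1.82 for Ftl1, and -1.31 and -2.33 for Bmp6. Hfe was called at ZT 20 alone, at -0.61 (adjusted p = 0.0236), and this call was lost without AIN93G replicate 1 and without each HFD replicate (adjusted p up to 0.0623). It was 0.23 at ZT 16 (adjusted p = 0.183), where scaling by library size alone, which moved the median of all genes to -0.85, gave -0.61. The difference between the 2 time points in Hfe was not tested. Values for ZT 24, where each diet has 1 liver library and 2 adipocyte-rich ones, had no test. In the liver libraries of AIN93G and HFD at ZT 24, Hamp was at 1307 and 784 CPM and Hamp2 at 619 and 138 CPM, beside Arntl at 0.873 and 1.29 CPM. The 6 liver libraries of ZT 0, the same hour of the day, had Arntl between 43.8 and 51.2 CPM and are labelled light phase, whereas all libraries of ZT 24 are labelled dark phase, so the ZT 24 values cannot be read as a repeat of ZT 0.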

How the data were processed

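Poly-A RNA of mouse liver was sequenced in pairs from libraries made with a kit that does not mark strand. Per the submitters' processing notes, the authors used fastp, STAR, HTSeq 0.6.1, DESeq and STAR-Fusion with mm10. The deposited values are whole-number read counts per gene, not normalized. The annotation release and the strand setting of HTSeq are not given in the sources used here.

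Samples were grouped by the diet and time of their labels. The members and all gene lists were chosen with earlier results of these data known. All 10 members were named, with up to 3 other called genes of each pathway list and the 3 genes most like Hamp, Tfrc, Slc40a1 and Bmp6.

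Differences were tested with edgeR 4.0.16 (quasi-likelihood F-test, TMM factors, Benjamini-Hochberg adjustment over all genes, threshold 0.05) in R 4.3.3. Genes with a mean count under 25 in the 30 liver libraries (in all 42 for ZT 16 and 20) were left out, which kept 12023 and 13394 genes. Log2 CPM used a prior count of 2. Alternatives were DESeq2 1.42.0, other scaling, no filter, other time models, and each library left out. Intervals on ratios of counts are exact Poisson intervals at 95% and cover counting error only. The scripts were tested on simulated counts. Replicates differed by more than counting noise in each of 42 pairs. Promoter motifs were searched by exact letters. Iron-responsive elements were searched by the pattern given above, in which G with T also counted as a pair.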

Additional observations from a re-analysis of the deposited data

How the results depend on the processing

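In the time test on the HFD, edgeR called 1 member of 10, and called 3 without the filter on low counts and 0 over ZT 0 to 12 alone. For the interaction of diet with time, 1 member was called without the filter, against 0 with it. For diet at ZT 0, DESeq2 called 1 member and edgeR without the filter 3, against 0, and for diet at ZT 4 edgeR without the filter called 1, against 0. Under the diet labels, DESeq2 called 8 members at ZT 16 and 9 at ZT 20, against 7 and 8, among 7821 and 7931 genes of 13394. Hfe at ZT 16 turned from 0.23 to -0.61 with scaling by library size alone. The cause of these changes was not tested. With 1 library left out, the number of members called stayed at 1 in the time test on the HFD, at 7 at ZT 16, at 7 to 8 at ZT 20 and at 0 in the other comparisons. Counts of all genes called moved more: 318 genes for time on the HFD became 1533 with DESeq2, 2333 without the filter, 1030 with cosine and sine terms, 635 without ZT 12, 634 in one fit of all 30 libraries, 1 over ZT 0 to 12 alone, and 173 (without replicate 2 of HFD ZT 0) to 1078 (without replicate 3 of HFD ZT 12) with 1 library left out. For time on AIN93G, 0 became 275 with DESeq2, 705 without the filter, 99 in one fit, 287 without ZT 12, and up to 305 without replicate 1 of AIN93G ZT 12. For diet over ZT 0 to 12, 16 became 80 with DESeq2, 27 by library size alone, 86 without the filter, 86 without ZT 12, and 2 to 124 without replicate 3 or replicate 1 of AIN93G ZT 12. For the interaction, 0 became 8 with DESeq2, 78 without the filter, and up to 3 with 1 library left out. For diet at ZT 0, 9 became 102 with DESeq2, 453 without the filter, 0 in one fit, and 1 to 32 with 1 library left out. At ZT 4, 0 became 27 and 182, at ZT 8 60 and 252, with DESeq2 and without the filter, and at ZT 12 4 with DESeq2. Of 520 values of single members under another tool, scaling, filter or time model, 12 gained a call, 1 lost it (Hamp over ZT 0 to 12 alone) and 14 changed sign, with a call only for Hfe at ZT 16. Of those without a call, Fth1 moved by more than its standard error, to -0.37 at ZT 16 and -0.17 at ZT 20 with library size alone. Of 1140 with 1 library left out, 4 lost their call, all of them Hfe at ZT 20, and 63 changed sign, none with a call. In 4 of these the move was larger than the standard error: Tfrc at ZT 4 went from -0.31 to 0.70 without AIN93G replicate 2, Trf at ZT 4 from -0.05 to 0.12 without AIN93G replicate 1, Trf at ZT 8 from 0.17 to -0.27 without HFD replicate 1, and Ftl1 at ZT 0 from -0.14 to 0.07 without AIN93G replicate 1. Summing Hamp and Hamp2, added after the data were seen, changed none of 8 calls. No paired analysis was possible because the labels do not tie a replicate number of one diet to a mouse, cage or batch of the other. Depth limits Bmp6, at 25 to 69 counts per liver library.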
